A study of Mus musculus with 12 samples.

Results

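GLAST-selected white matter cells of GnT-IX-deficient mice were compared with those of wild-type mice after 12 weeks of cuprizone in both genotypes. Markers of astrocytes, and also of oligodendrocytes and microglia, were high on these arrays, as given below. The comparison used the 3 arrays titled as GnT-IX-deficient at 12 weeks and the 3 titled as wild-type at 12 weeks, 6 of the 12 arrays of the series, over all 19505 genes with a named transcript cluster (the probes of one transcript, summarised as 1 value). Both groups were C57BL/6 mice that were 8 to 12 weeks old when the diet began and then ate powdered chow with 0.2% (w/w) cuprizone for 12 weeks. The other 6 arrays, of wild-type mice at 0 and 3 weeks of diet, served to estimate the spread between arrays and to show earlier levels. Each array is 1 biological replicate. None of the 12 arrays is of GnT-IX-deficient mice without cuprizone. The effect of genotype under the diet thus cannot be told apart from an effect present without it. How the allele was made, whether wild-type mice were littermates, and the sex of the mice are not given in the sources used here. Cells were dissociated with papain, Fc receptors were blocked to keep microglia away, and cells were pulled out with anti-GLAST beads; GLAST is a glutamate transporter, the product of Slc1a3. RNA came from either the miRNeasy or the NucleoSpin RNA XS kit, and since the labels do not tie kits to samples, kit and genotype cannot be told apart.

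GnT-IX, encoded by Mgat5b, is an N-acetylglucosaminyltransferase of the brain. It branches O-mannosyl glycans, sugars attached to serine or threonine through mannose, on proteins such as the receptor phosphatase Ptprz1 of astrocytes and oligodendrocyte precursors. Cuprizone is a copper chelator under which oligodendrocytes die and white matter loses its myelin, while astrocytes and microglia become reactive.

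At 12 weeks, Mgat5b fell and 4 genes rose in GnT-IX-deficient arrays: the pseudogene Gm3893, the cell adhesion gene Emb, a transcript cluster of Fam205a2, and the complement regulator Cd55. These 5 were all the genes past a Benjamini-Hochberg adjusted p of 0.05 in limma, a moderated linear model, over 19505 genes. The 4 higher genes were 0.0205% of those tested and the 1 lower gene 0.00513%. At an unadjusted p under 0.05 there were 712 higher genes (3.65%) and 651 lower genes (3.34%). All 3 values of one group lay beyond all 3 of the other, here called apart, for 1028 higher genes (5.27%) and 1087 lower genes (5.57%). The median log2 difference over all genes was -0.01. With 3 arrays against 3, an exact permutation test of a single gene cannot give a p below 0.1. Arrays correlated across genes with r of 0.979 to 0.982 within the wild-type group, 0.974 to 0.976 within the GnT-IX-deficient group and 0.971 to 0.979 between groups, and array medians lay between 5.38 and 5.45.

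**Figure D1:**
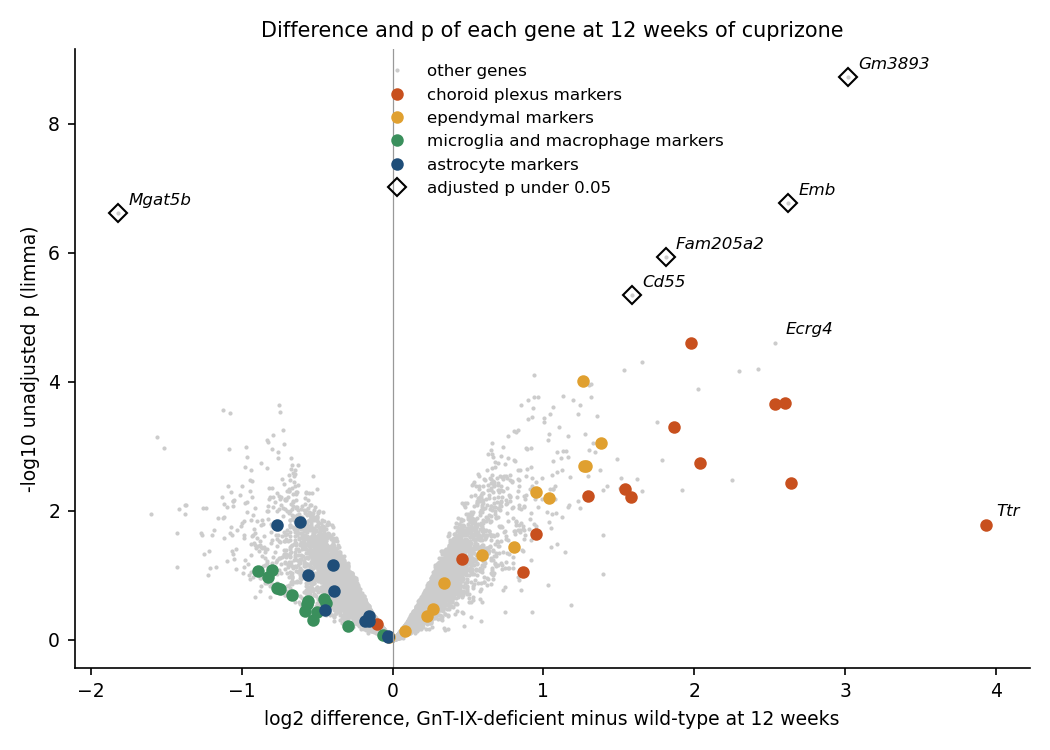
Each point is 1 gene, with its log2 difference between GnT-IX-deficient and wild-type arrays at 12 weeks on the x axis and -log10 of its unadjusted limma p on the y axis. The 5 genes past an adjusted p of 0.05 are outlined in black; choroid plexus and ependymal markers lie mostly to the right of 0, and microglia and astrocyte markers to the left.

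Values are deposited log2 values, listed as replicates 1, 2 and 3, and differences are GnT-IX-deficient minus wild-type with the standard error from limma. Mgat5b was at 5.96, 5.88 and 5.57 in wild-type arrays and at 3.70, 4.19 and 4.06 in GnT-IX-deficient arrays. The genotypes did not overlap, and every GnT-IX-deficient value lay below all 9 wild-type values of the series. The difference was -1.82 ± 0.21 (SE, 95% confidence interval -2.26 to -1.38, adjusted p = 0.00159), a 3.53-fold lower signal. The GnT-IX-deficient values lay near the lower quartile of the named genes, which was at most 3.94 among the arrays, a range in which the authors' normalization compresses folds. The targeted gene thus followed the genotype labels on all 3 arrays. Over the 50 genes on either side of Mgat5b on chromosome 11 that were measured, 100 in all, the median difference was -0.09 and none passed the threshold. Of these 100 neighbours, 4 were apart upward and 9 downward, beside 5.27% and 5.57% of all genes.

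Gm3893, annotated as a transcribed pseudogene on chromosome 4, was at 5.85, 5.54 and 5.93 in wild-type arrays and at 9.30, 8.83 and 8.24 in GnT-IX-deficient arrays. Its difference was 3.02 ± 0.24 (SE, adjusted p = 3.69e-05), an 8.09-fold higher signal. The wild-type means at 0 and 3 weeks, 5.88 ± 0.25 and 5.79 ± 0.21 (SD, n = 3), were close to the 5.77 ± 0.21 (SD, n = 3) at 12 weeks, and no wild-type array came near the GnT-IX-deficient range. It was past the threshold under all 20 alternative settings tried, from 2.47 to 3.33.

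Fam205a2 is one of several Fam205a genes on chromosome 4. In the RefSeq gene order 4 measured genes lie between it and Gm3893 (Gm13304, Ccl21b, Gm21953 and Fam205a3), with adjusted p-values from 0.533 to 0.939. The deposited table has a pair of clusters under its name. The brighter one was at 5.97, 6.15 and 5.72 in wild-type arrays and at 8.30, 7.59 and 7.38 in GnT-IX-deficient arrays, a difference of 1.81 ± 0.23 (SE, adjusted p = 0.00566). The other was at 5.59, 5.02 and 4.86 in wild-type and at 5.13, 5.09 and 5.34 in GnT-IX-deficient arrays, a difference of 0.03 ± 0.34 (SE), with the genotypes overlapping. The clusters thus disagree, and with their mean in place of the brighter one the difference was 0.92 and the adjusted p 0.399. The identifier of the brighter cluster names a chromosome 4 scaffold without a fixed place, and that of the other names chromosome 4 itself. The other measured copies had differences of 0.04 for Fam205a1, 0.16 for Fam205a3 and 0.02 for Fam205a4.

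The bases that RefSeq lists before the starts of Fam205a2 and Fam205a1 show how alike a pair of these genes can be. The 250 bases upstream of a Fam205a2 start (GRCm38.p6, chr4:42528238-42528487, minus strand) and of the Fam205a1 start (chr4:42853889-42854138, minus strand) follow, with the bases that differ in capitals; RefSeq lists 2 starts for Fam205a2, and the one shown was chosen as more like Fam205a1, with 234 identical bases against 148 for the other. Gm3893 and Fam205a4 have no entry in the table.
Fam205a2: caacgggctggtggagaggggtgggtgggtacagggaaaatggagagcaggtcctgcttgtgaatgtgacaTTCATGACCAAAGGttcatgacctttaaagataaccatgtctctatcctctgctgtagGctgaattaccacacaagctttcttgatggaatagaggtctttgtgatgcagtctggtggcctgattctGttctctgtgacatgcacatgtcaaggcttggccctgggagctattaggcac
Fam205a1: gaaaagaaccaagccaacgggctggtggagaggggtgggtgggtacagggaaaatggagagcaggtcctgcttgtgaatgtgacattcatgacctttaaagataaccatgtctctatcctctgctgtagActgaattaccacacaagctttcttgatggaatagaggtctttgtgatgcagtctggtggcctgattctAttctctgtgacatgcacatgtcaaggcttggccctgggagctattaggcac
In this pair 2 aligned bases differed, and 14 bases of Fam205a2 were missing from Fam205a1. The Fam205a1 window begins with bases that lie before the aligned part. These have no partner in the Fam205a2 window shown and were left in lower case. Transcript and probe sequences were not compared here, so which copy gave the signal is uncertain.

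Emb encodes embigin, an immunoglobulin-superfamily protein of the cell surface that escorts monocarboxylate transporters. It was at 4.33, 4.48 and 3.92 in wild-type arrays and at 7.25, 6.89 and 6.46 in GnT-IX-deficient arrays. The difference was 2.62 ± 0.29 (SE, adjusted p = 0.00159), a 6.16-fold higher signal. Wild-type arrays were at 3.83, 3.53 and 3.86 before the diet and at 4.83, 4.94 and 6.06 after 3 weeks, so the 3-week arrays lay between the 12-week groups. All 3 GnT-IX-deficient values lay above all 9 wild-type values.

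Cd55 encodes decay-accelerating factor, which takes apart complement convertases on the cell's own surface. Its wild-type arrays were at 2.92, 3.42 and 3.26, below the lower quartile of named genes, and the GnT-IX-deficient arrays were at 4.58, 5.16 and 4.62. The difference was 1.59 ± 0.23 (SE, adjusted p = 0.0178). Cd55b, the neighbouring copy of the gene, was at 5.96, 5.15 and 5.53 against 6.57, 6.63 and 6.34, a difference of 0.97 with an adjusted p of 0.163. The call on Cd55 was lost without GnT-IX-deficient replicate 2 (adjusted p = 0.179), without wild-type replicate 1 (0.0808) and without wild-type replicate 3 (0.109). The call on Fam205a2 was lost without wild-type replicate 3 (0.0719). Gm3893, Emb and Mgat5b kept theirs without any single array.

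**Figure D2:**
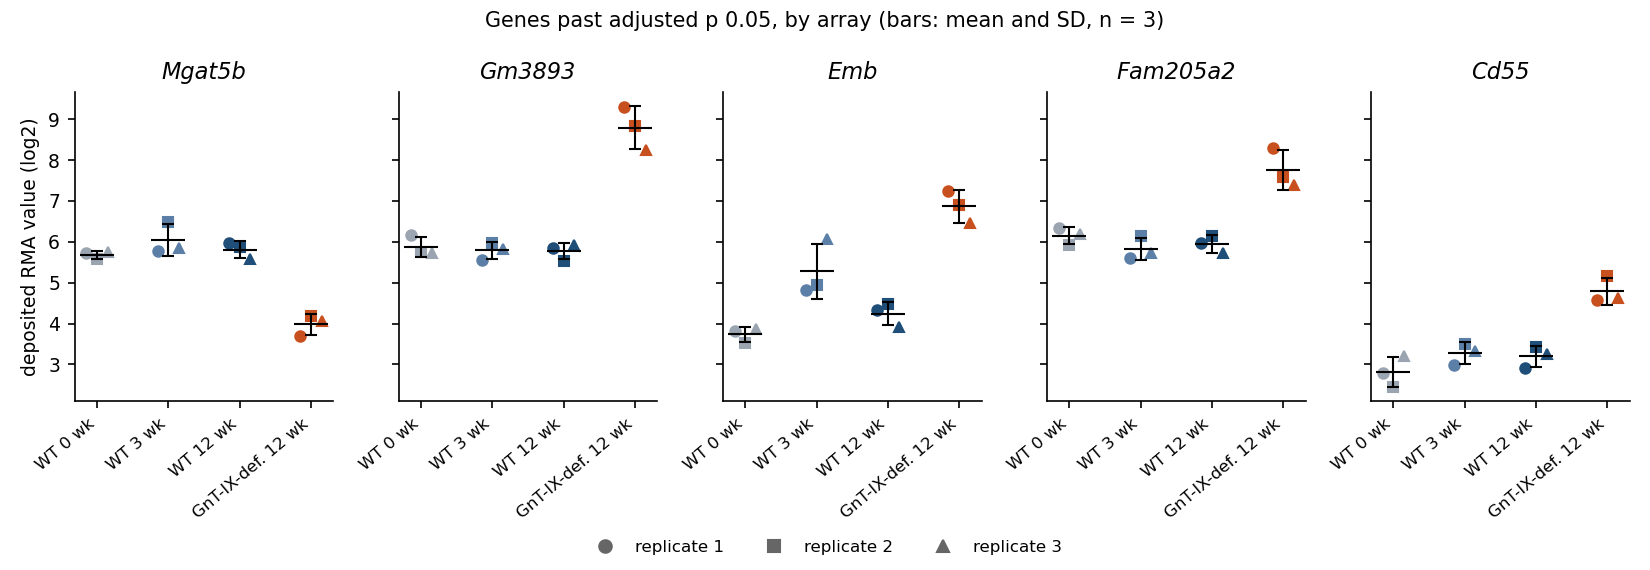
Deposited log2 values (y axis) of the 5 genes past the threshold on all 12 arrays, by group (x axis; WT, wild-type), with symbols for the replicate and bars for the mean and SD of 3 arrays. The GnT-IX-deficient arrays lie beyond all wild-type arrays in each gene.

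Markers of choroid plexus and ependymal cells, which border the ventricles, were higher in GnT-IX-deficient arrays without passing the threshold. Choroid plexus epithelium makes cerebrospinal fluid and abundantly expresses Ttr, the thyroxine carrier transthyretin. The mean of its 14 measured markers was 7.99, 7.10 and 5.63 in GnT-IX-deficient arrays and 5.25, 5.46 and 4.83 in wild-type arrays at 12 weeks, and it ranged from 4.65 to 5.88 over all 9 wild-type arrays. Replicates 1 and 2 stood above every wild-type array, and replicate 3 lay within their range. Of the 14 markers 13 were higher, with a median difference of 1.72, and none passed the threshold. An unadjusted p under 0.05 was reached upward by 11, beside 3.65% of all genes, and 4 were apart upward, beside 5.27%.

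Ttr was at 12.47, 12.09 and 9.56 in GnT-IX-deficient arrays, against 7.40, 9.92 and 4.99 in wild-type arrays (difference 3.94 ± 1.46, SE, adjusted p = 0.622), so wild-type replicate 2 overlapped the other group. Folr1, the folate receptor through which folate enters cerebrospinal fluid, was at 9.59, 8.79 and 6.63 against 5.94, 5.66 and 5.81 (adjusted p = 0.163). Kl, the anti-ageing hormone klotho, was at 7.82, 6.01 and 3.05 against 2.93, 3.31 and 2.71 (adjusted p = 0.458). The order of the GnT-IX-deficient arrays, with replicate 1 highest and replicate 3 lowest, was the same in each of these genes. Without replicate 3, Folr1 (adjusted p = 0.000574) and Kl (0.00120) were past the threshold, and without replicates 1 and 2 together the median of the list was 0.11. Each of these fits left out arrays picked by these same values. That moves the difference by construction, so neither fit is separate evidence.

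Ependymal cells line the ventricles and carry motile cilia. Their 13 measured markers averaged 6.36, 7.20 and 6.88 in GnT-IX-deficient arrays and 6.33, 5.91 and 6.01 in wild-type arrays at 12 weeks. Here replicates 2 and 3 were high and replicate 1 lay within the range of 5.72 to 6.40 of the 9 wild-type arrays, unlike the order of the choroid plexus list. The median difference was 0.80, with 12 of 13 members higher and none past the threshold. Upward, 8 were at an unadjusted p under 0.05, beside 3.65% of all genes, and 6 were apart, beside 5.27%. Rsph1, a radial spoke protein of motile cilia, was at 6.76, 7.50 and 7.21 against 6.30, 5.75 and 5.63 (adjusted p = 0.146). Dynlrb2, a dynein light chain, was at 6.61, 8.44 and 7.60 against 6.45, 6.23 and 6.16 (adjusted p = 0.399).

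With the choroid plexus mean of each array as a covariate, Gm3893 alone kept its call, at an adjusted p of 0.0252. The differences were then 1.87 for Emb (adjusted p = 0.327), -1.63 for Mgat5b (0.327), 1.4 for Fam205a2 (0.742) and 1.58 for Cd55 (0.742). The standard error of the typical gene was 1.48 times as large with that covariate. With the ependymal mean as a covariate, an alternative chosen after the data were seen, Gm3893 and Fam205a2 kept their calls and the others were at 2.53 for Emb (adjusted p = 0.158), -1.95 for Mgat5b (0.0847) and 1.47 for Cd55 (1.00). In bulk samples, more cells of a type and more RNA per cell cannot be told apart. The part of these cells in the calls was not tested beyond these covariates.

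The number of genes called depended on which array was left out. Without GnT-IX-deficient replicate 3, 49 of the 19505 genes were called, 46 of them higher, and 9 of the 14 choroid plexus markers were among them. That array had the lowest choroid plexus mean of its group, so leaving it out favours these markers by construction. Without GnT-IX-deficient replicate 1, 9 genes were called, and without wild-type replicate 3, 3 genes were called. Without GnT-IX-deficient replicates 1 and 2 together, where the lone array was assumed to vary like the other groups, 6 genes were called, of which Gm3893 was the 1 shared with the full comparison. The differences then were 2.22 for Emb (adjusted p = 0.183) and -1.74 for Mgat5b (0.101).

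**Figure D3:**
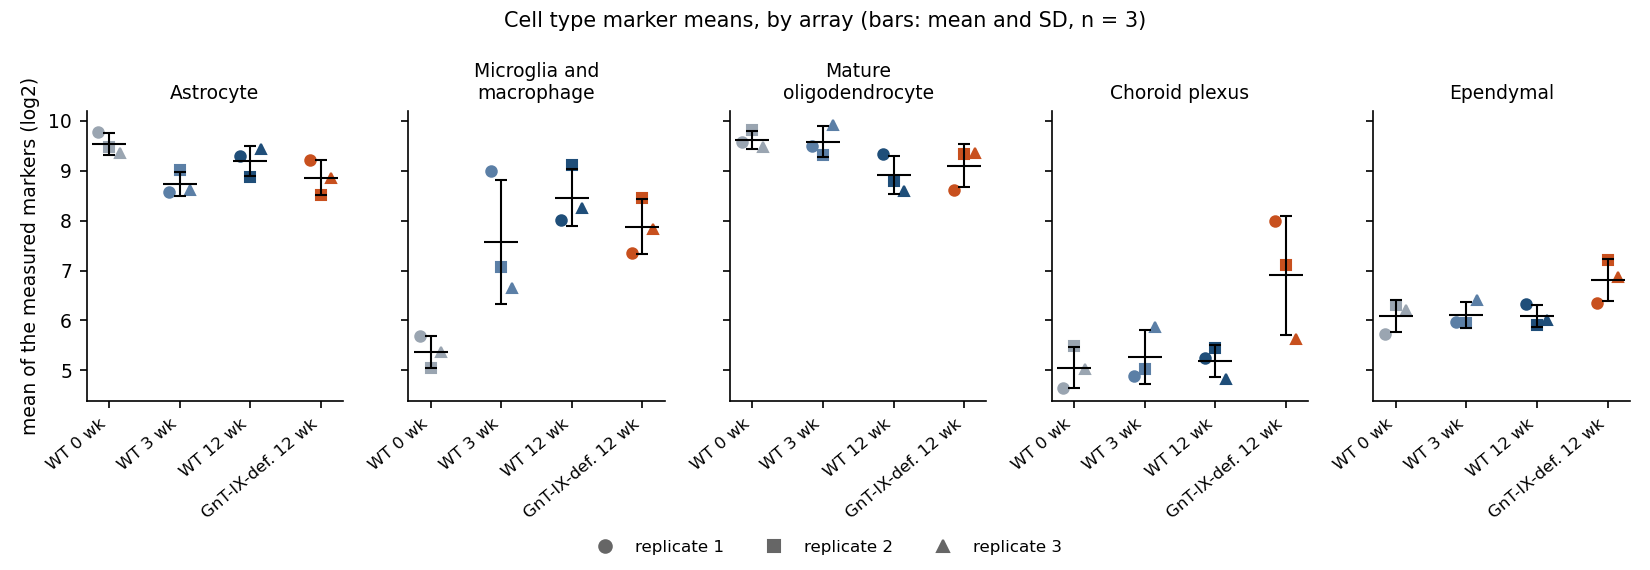
Mean log2 value of the measured markers of 5 cell types (y axis) on each of the 12 arrays, by group (x axis; WT, wild-type), with bars for the mean and SD of 3 arrays. Choroid plexus means were highest in GnT-IX-deficient replicates 1 and 2, and ependymal means in replicates 2 and 3.

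Astrocyte markers were present in both genotypes, and none passed the threshold. Their mean over 11 genes was 9.29, 8.87 and 9.44 in wild-type and 9.22, 8.51 and 8.85 in GnT-IX-deficient arrays. All 11 had a difference below 0, with a median of -0.39 beside -0.01 over all genes, and none were apart. In wild-type arrays at 12 weeks, marker means were 9.20 for astrocytes, 8.91 for mature oligodendrocytes, 8.46 for precursors and 8.46 for microglia and macrophages. A difference on these arrays thus cannot be assigned to astrocytes alone. Slc1a3, whose protein the beads bound, was at 7.24, 7.05 and 7.61 in wild-type and at 7.51, 6.92 and 7.37 in GnT-IX-deficient arrays. Its difference was -0.03 ± 0.27 (SE, 95% confidence interval -0.61 to 0.55), so a change within that interval in either direction remained possible. The interval does not give the smallest difference that the test could have called. Gjb6, the gap junction protein connexin 30, was at 9.47, 8.35 and 9.29 in wild-type and 8.68, 8.21 and 7.93 in GnT-IX-deficient arrays (-0.76 ± 0.28, SE, adjusted p = 0.622). Aldh1l1, a folate enzyme used as an astrocyte marker, was at 8.74, 8.11 and 8.77 against 8.33, 7.70 and 7.75 (adjusted p = 0.604). Of 18 homeostatic astrocyte genes 17 were lower, with a median of -0.20; the glutamate transporter Slc1a2 was at 11.34, 11.08 and 11.37 against 11.20, 10.56 and 10.84 (adjusted p = 0.734).

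Gfap, the intermediate filament of reactive astrocytes, did not separate the genotypes. It was at 8.17, 8.31 and 9.02 in wild-type and at 8.04, 6.86 and 9.26 in GnT-IX-deficient arrays, with the highest and the lowest value both in the GnT-IX-deficient group. Its difference was -0.45 ± 0.46 (SE, 95% confidence interval -1.42 to 0.53, adjusted p = 0.860), and the wild-type mean before the diet was 6.22. GnT-IX-deficient replicate 2 was also low for the pan-reactive genes Serpina3n, a secreted protease inhibitor, at 8.29, 7.30 and 9.17 against 8.60, 8.86 and 9.11, and Osmr, the oncostatin M receptor, at 5.25, 4.0 and 5.26 against 5.24, 5.77 and 5.98 (adjusted p = 0.592). Of 13 pan-reactive genes 10 were lower, with a median of -0.30. The medians were -0.12 over 10 genes of the A1-type list and -0.13 over 13 of the A2-type list, with none past the threshold in any of these lists. H2-T23, a non-classical MHC class I gene of the A1-type list, was apart at 7.04, 6.85 and 7.13 in wild-type and 6.12, 6.77 and 6.54 in GnT-IX-deficient arrays (adjusted p = 0.633). Ptx3, a secreted pentraxin of the A2-type list, was apart at 6.22, 6.47 and 6.24 against 5.65, 5.89 and 6.11 (adjusted p = 0.650).

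Among the other genes of O-mannosyl glycan synthesis, none passed the threshold. Of the list of 15 genes, 9 were measured, Mgat5b included, with a median difference of -0.11. Pomt1, a subunit of the enzyme that adds the first mannose, was apart at 4.64, 4.96 and 5.09 in wild-type and 4.46, 4.60 and 4.25 in GnT-IX-deficient arrays (-0.46 ± 0.18, SE, adjusted p = 0.627). Pomgnt1, which adds the N-acetylglucosamine on which GnT-IX acts, was at 7.64, 7.02 and 7.13 against 7.74, 7.38 and 7.42 (adjusted p = 0.832). Dag1, whose product dystroglycan carries O-mannosyl glycans, was at 9.79, 9.56 and 9.35 against 9.51, 9.11 and 9.29 (adjusted p = 0.813).

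Mgat5, the closest relative of Mgat5b, which branches N-glycans, was at 7.39, 7.01 and 7.34 in wild-type and 7.01, 6.78 and 6.85 in GnT-IX-deficient arrays (-0.37 ± 0.24, SE, adjusted p = 0.785). None of the 13 measured N-glycan branching genes (median -0.20) or of the 11 genes of the HNK-1 epitope and other outer sugars (median -0.07) passed the threshold. St8sia4, which makes polysialic acid, was the only member of the outer-sugar list that was apart, at 4.59, 5.43 and 4.70 against 4.22, 4.52 and 4.35 (adjusted p = 0.625). That is 1 of 11 downward, beside 5.57% of all genes. Ptprz1 was at 9.24, 9.53 and 9.35 in wild-type and 9.25, 8.41 and 9.41 in GnT-IX-deficient arrays (-0.35, adjusted p = 0.785), with replicate 2 alone below the wild-type values. Its ligand Ptn, pleiotrophin, was nearly equal, at 10.09, 10.02 and 10.33 against 10.13, 10.05 and 10.14 (-0.04 ± 0.15, SE). Of the 18 genes of Ptprz1, its ligands and the brain matrix, 14 were lower with a median of -0.24. Hapln1, a link protein of hyaluronan matrix, was apart at 7.89, 7.44 and 8.15 against 7.28, 7.28 and 7.17 (adjusted p = 0.627). It was 1 of 18 apart downward, beside 5.57% of all genes.

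Microglial genes lay lower in GnT-IX-deficient arrays, and none passed the threshold. The mean of 15 microglia and macrophage markers was 8.01, 9.11 and 8.26 in wild-type and 7.35, 8.46 and 7.84 in GnT-IX-deficient arrays, so the groups overlapped. All 15 differences were below 0, with a median of -0.57 and none apart. With the choroid plexus mean as a covariate that median was 0.02. The covariate itself differed by genotype, at 6.91 in GnT-IX-deficient and 5.18 in wild-type arrays at 12 weeks. It made the standard error of the typical gene 1.48 times as large. A part of choroid plexus cells in the lower microglial values was not tested. Csf1r, the receptor on which microglia depend, was at 9.28, 10.34 and 9.13 against 8.51, 9.24 and 8.61 (adjusted p = 0.747). Of 11 genes of the disease-associated microglia list 10 were lower, with a median of -0.42. Of them 3 were apart downward, beside 5.57% of all genes. Axl, a receptor for dying cells, was apart at 9.16, 9.13 and 8.96 against 8.56, 8.36 and 8.40 (-0.64 ± 0.21, SE, adjusted p = 0.499). Gpnmb, a glycoprotein of lipid-laden phagocytes, was at 6.86, 8.41 and 7.54 against 6.33, 6.39 and 7.13 (adjusted p = 0.652).

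The complement list held both directions. Beside Cd55, Cd59a, which blocks the membrane attack complex, was apart at 7.45, 6.73 and 7.50 in wild-type and 8.68, 8.32 and 8.58 in GnT-IX-deficient arrays (1.30 ± 0.25, SE, adjusted p = 0.146). These membrane-bound regulators were the members with the highest differences, while 11 of the 14 measured genes were below 0 and the median was -0.44. C4b, the classical pathway component that reactive astrocytes express, was apart at 9.52, 9.38 and 9.53 against 8.95, 8.63 and 9.24 (-0.54 ± 0.28, SE, adjusted p = 0.739). C1qa, a microglial gene that starts the classical pathway, was at 9.96, 11.05 and 10.34 against 9.27, 10.17 and 9.91 (adjusted p = 0.807).

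Engulfment receptors were among the lower genes without passing the threshold. Of 16 measured phagocytosis genes 12 were lower, with a median of -0.25. Of them 3 were apart downward, beside 5.57% of all genes. Mertk, a receptor that astrocytes use to take up debris, was at 9.56, 8.93 and 9.42 in wild-type and 8.93, 8.29 and 7.69 in GnT-IX-deficient arrays (-1.0 ± 0.30, SE, adjusted p = 0.458). Itgb5, an integrin subunit that binds bridging molecules on dying cells, was apart at 8.27, 8.66 and 8.00 against 7.60, 7.57 and 7.33 (-0.81 ± 0.25, SE, adjusted p = 0.491). Megf11, a relative of the engulfment receptor Megf10, was apart at 4.51, 4.44 and 4.05 against 3.74, 3.95 and 3.75 (adjusted p = 0.652).

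Of 13 measured antigen presentation genes 11 were lower, with a median of -0.20, and 4 were apart downward, beside 5.57% of all genes. H2-Ab1, an MHC class II chain, was at 6.47, 7.01 and 7.01 in wild-type and 6.18, 6.24 and 6.20 in GnT-IX-deficient arrays (adjusted p = 0.627). Tap1, which carries peptides to MHC class I, was at 6.76, 6.52 and 6.49 against 6.13, 6.09 and 6.04 (adjusted p = 0.699). The 19 interferon-stimulated genes had a median of -0.08, with 1 apart in each direction, beside 5.27% upward and 5.57% downward of all genes. Of 19 chemokine and chemokine receptor genes 14 were lower, with a median of -0.21.

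Of 24 measured genes of the integrated stress response 17 were higher, with a median of 0.20, the highest of the 22 pathway lists. None passed the threshold, and 1 was apart upward and 3 downward, beside 5.27% and 5.57% of all genes. An unadjusted p under 0.05 was reached by 0 higher and 2 lower members. The list mean was 7.17, 7.07 and 7.19 in wild-type and 7.14, 7.06 and 7.48 in GnT-IX-deficient arrays, so replicate 3 alone lay above the wild-type arrays. Nupr1, a stress-induced nuclear protein, was at 8.65, 8.97 and 9.48 in wild-type and 9.10, 9.48 and 9.76 in GnT-IX-deficient arrays (adjusted p = 0.739). Ddit3, the stress factor CHOP, was at 8.44, 8.36 and 8.80 against 8.59, 8.77 and 9.58 (adjusted p = 0.760). Atf3, a stress factor that is also an immediate early gene, lay the other way, apart at 6.42, 7.41 and 6.47 against 5.85, 5.68 and 5.96 (-0.94 ± 0.34, SE, adjusted p = 0.592). Of 21 immediate early genes, which respond within minutes to a stimulus and to dissociation, 17 were lower, with a median of -0.25. Zfp36, which marks short-lived mRNAs for decay, was at 6.51, 6.73 and 6.30 against 5.15, 6.31 and 5.53 (adjusted p = 0.639).

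**Figure D4:**
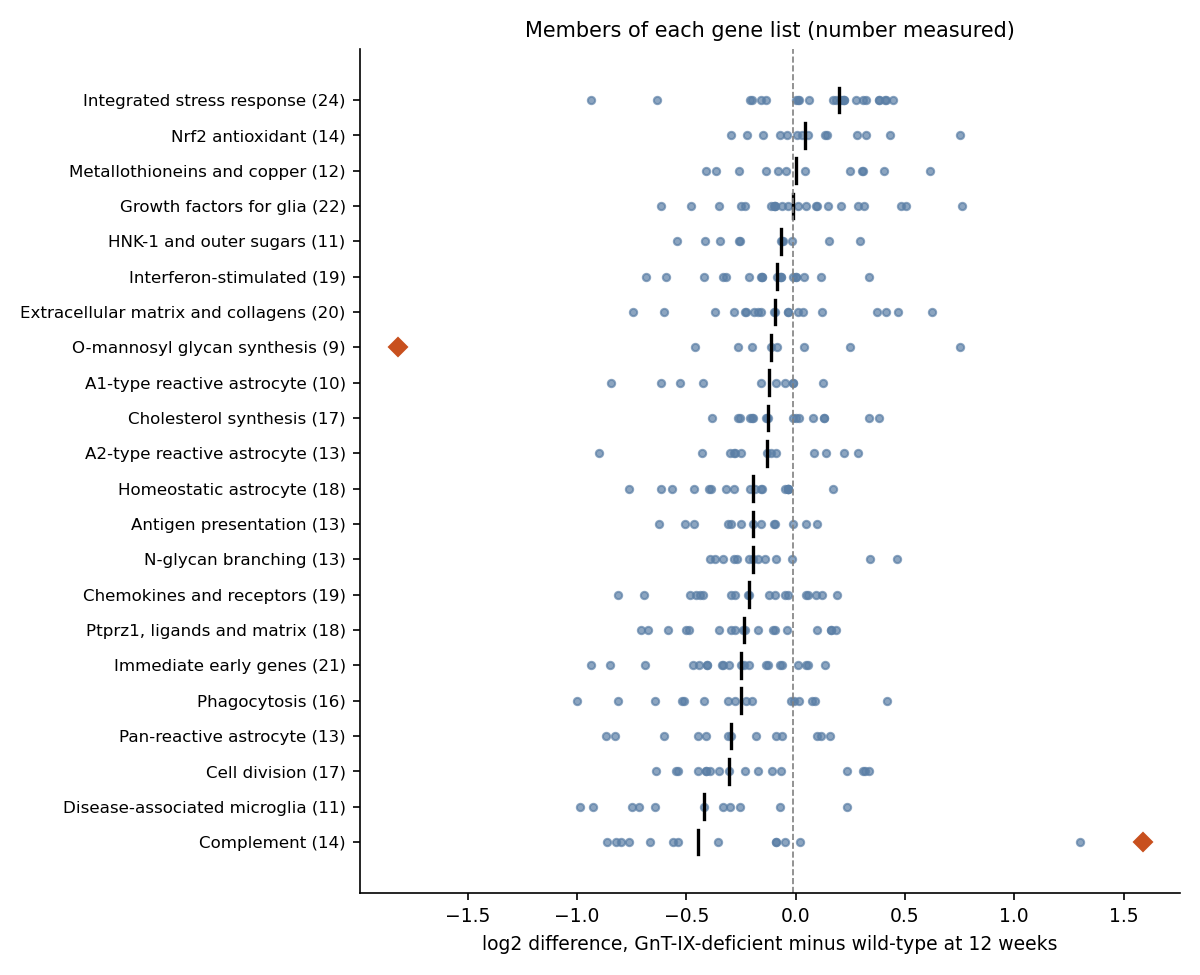
Log2 differences (x axis) of the measured members of the 22 pathway lists (y axis, with the number measured), with a black bar for the median of each list, diamonds for the genes past the threshold and a dashed line for the median of all genes. Mgat5b and Cd55 are the 2 members past the threshold.

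Growth factors, antioxidant genes and copper genes had list medians near 0. The 22 measured growth factors for glia had a median of -0.01, and Tgfb2, a secreted TGF-beta, was at 6.41, 6.38 and 7.15 in wild-type and 7.74, 7.03 and 7.45 in GnT-IX-deficient arrays (0.76 ± 0.23, SE, adjusted p = 0.467). The 14 Nrf2 antioxidant genes had a median of 0.04. Gsta4, a glutathione transferase that clears lipid peroxidation products, was apart at 7.59, 7.48 and 8.29 against 8.77, 8.44 and 8.41 (0.75 ± 0.24, SE, adjusted p = 0.499). Among 12 genes of metallothioneins and copper handling, 6 were higher and 6 lower. Slc31a1, the copper importer, was at 6.85, 6.69 and 7.21 against 8.39, 7.30 and 6.90 (adjusted p = 0.732), with the highest value in the array that was also highest for choroid plexus markers. The median was -0.13 over 17 cholesterol synthesis genes, -0.30 over 17 cell division genes and -0.10 over 20 extracellular matrix genes. Rrm2, a ribonucleotide reductase subunit of dividing cells, was apart at 4.75, 4.85 and 4.54 against 4.14, 3.67 and 4.42 (adjusted p = 0.629).

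Mature oligodendrocyte markers, the cells lost under cuprizone, overlapped between genotypes. Their mean over 11 genes was 9.34, 8.80 and 8.59 in wild-type and 8.61, 9.33 and 9.36 in GnT-IX-deficient arrays, with a median difference of 0.22 and none past the threshold or apart. Opalin, a late myelin protein, was at 9.21, 9.02 and 8.79 against 8.85, 10.39 and 9.77 (0.66 ± 0.38, SE, adjusted p = 0.761). Mbp, myelin basic protein, was at 10.51, 10.25 and 9.55 against 10.00, 9.53 and 9.84 (adjusted p = 0.830). GnT-IX-deficient replicate 1 was below the other replicates for Opalin and above them for Mbp. Precursor markers had a median of -0.29 over 10 genes. Enpp6, a gene of newly formed oligodendrocytes, was at 7.30, 6.98 and 7.13 against 6.98, 7.89 and 8.53 (adjusted p = 0.692), and Cspg4, the NG2 proteoglycan of precursors, was at 10.64, 10.26 and 9.24 against 9.38, 8.93 and 9.81 (adjusted p = 0.733). Neuron markers had a median of 0.38 over 13 genes, with 3 apart upward, beside 5.27% of all genes. Endothelial markers had a median of -0.04 over 12 genes and mural cell markers of -0.17 over 10 genes. Neutrophil and lymphocyte markers lay mostly in the dim range, 7 of 9 and 8 of 11 in either group. None of these cell type lists had a member past the threshold.

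Beyond the called genes, those with the smallest p whose genotypes were apart were taken up to 15 in each direction. None passed the threshold. Ecrg4, which encodes a secreted peptide precursor made by choroid plexus, was at 5.12, 5.20 and 5.55 in wild-type and 8.58, 8.17 and 6.73 in GnT-IX-deficient arrays (2.54 ± 0.43, SE, adjusted p = 0.0707). Calml4, a calmodulin-like gene of the choroid plexus list, was at 3.71, 3.07 and 2.98 against 5.46, 5.69 and 4.55 (1.98 ± 0.33, SE, adjusted p = 0.0707). Slc13a4, a sulfate transporter of choroid plexus and meninges, was at 7.52, 6.35 and 5.83 against 9.70, 8.53 and 8.74 (adjusted p = 0.122). Igfbp2, an insulin-like growth factor binding protein, was at 8.41, 8.24 and 8.48 against 10.50, 10.12 and 9.11 (adjusted p = 0.122), and its wild-type mean before the diet, 9.66, was also above that at 12 weeks. Steap1, of a family of metalloreductases, was at 4.68, 5.02 and 4.70 against 8.17, 7.39 and 5.74 (adjusted p = 0.122). Replicate 3 was the lowest of the GnT-IX-deficient arrays for Ecrg4, Calml4, Igfbp2 and Steap1, as it was for the choroid plexus mean. Without it, all 4 were past the threshold, with adjusted p-values of 0.00125, 0.00451, 0.00108 and 0.00043. These genes were grouped by their low replicate 3, and leaving out the lowest value raises the difference by construction. Passing without it is thus not separate evidence of a change. Tcea3, a transcription elongation factor, was at 5.35, 4.88 and 5.31 against 6.26, 6.16 and 5.94 (adjusted p = 0.126). The others were Wfikkn2, Cpn1, Smim22, Cd59a and Rsph1, with differences of 1.65, 1.31, 2.02, 1.30 and 1.26. Replicate 3 was also the lowest GnT-IX-deficient array for Tcea3, Wfikkn2 and Smim22, which were past the threshold without it at adjusted p-values of 0.0446, 0.0420 and 0.000574. The choice of the array left out limits these values in the same way.

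On the lower side the adjusted p-values began at 0.163. Slc43a2, an amino acid transporter, was at 7.86, 7.0 and 7.02 in wild-type and 6.18, 6.23 and 6.24 in GnT-IX-deficient arrays (-1.08 ± 0.23, SE, adjusted p = 0.178), below all 9 wild-type arrays. Nlrp3, the sensor of an inflammasome in myeloid cells, was at 5.06, 6.31 and 5.17 against 3.33, 4.17 and 4.35 (-1.56 ± 0.37, SE, adjusted p = 0.272), with a wild-type mean of 3.08 before the diet. Pde4c, a cAMP phosphodiesterase, was at 8.61, 8.09 and 8.06 against 7.31, 6.89 and 6.01 (-1.52 ± 0.38, SE, adjusted p = 0.324). Map3k20, a stress-activated kinase, was at 6.39, 6.37 and 6.27 against 5.87, 5.47 and 5.46 (adjusted p = 0.178). Epha2, an ephrin receptor, was at 6.46, 6.30 and 6.01 against 5.70, 5.31 and 5.28 (adjusted p = 0.303). Suz12, a subunit of the Polycomb repressive complex that methylates histone H3, was at 5.78, 5.56 and 5.76 against 4.82, 4.90 and 5.21 (adjusted p = 0.248). Herc6, an interferon-induced ubiquitin ligase, was at 7.46, 7.05 and 7.34 against 6.78, 6.25 and 6.43 (adjusted p = 0.324). The remaining ones, Olfr294, Mettl11b, Spatc1l, Cd300ld, Clec12b, Dock4 and Slco4a1, had differences from -1.13 to -0.72. Of these, Cd300ld and Clec12b encode receptors of myeloid cells.

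Over the whole array, 239 genes were higher in all 3 GnT-IX-deficient arrays than in all 9 wild-type arrays, and 193 were lower. One GnT-IX-deficient array stood apart in genes of the Y chromosome: Kdm5d was at 2.22, 5.14 and 2.52 and Uty at 2.09, 3.99 and 2.28, while no wild-type array at 12 weeks exceeded 2.32 for either. Sex, which is not given for any array, may thus be uneven within the GnT-IX-deficient group. Without that array, replicate 2, 4 genes were called: Cd55 lost its call, and none of the other genes named here gained one.

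**Figure D5:**
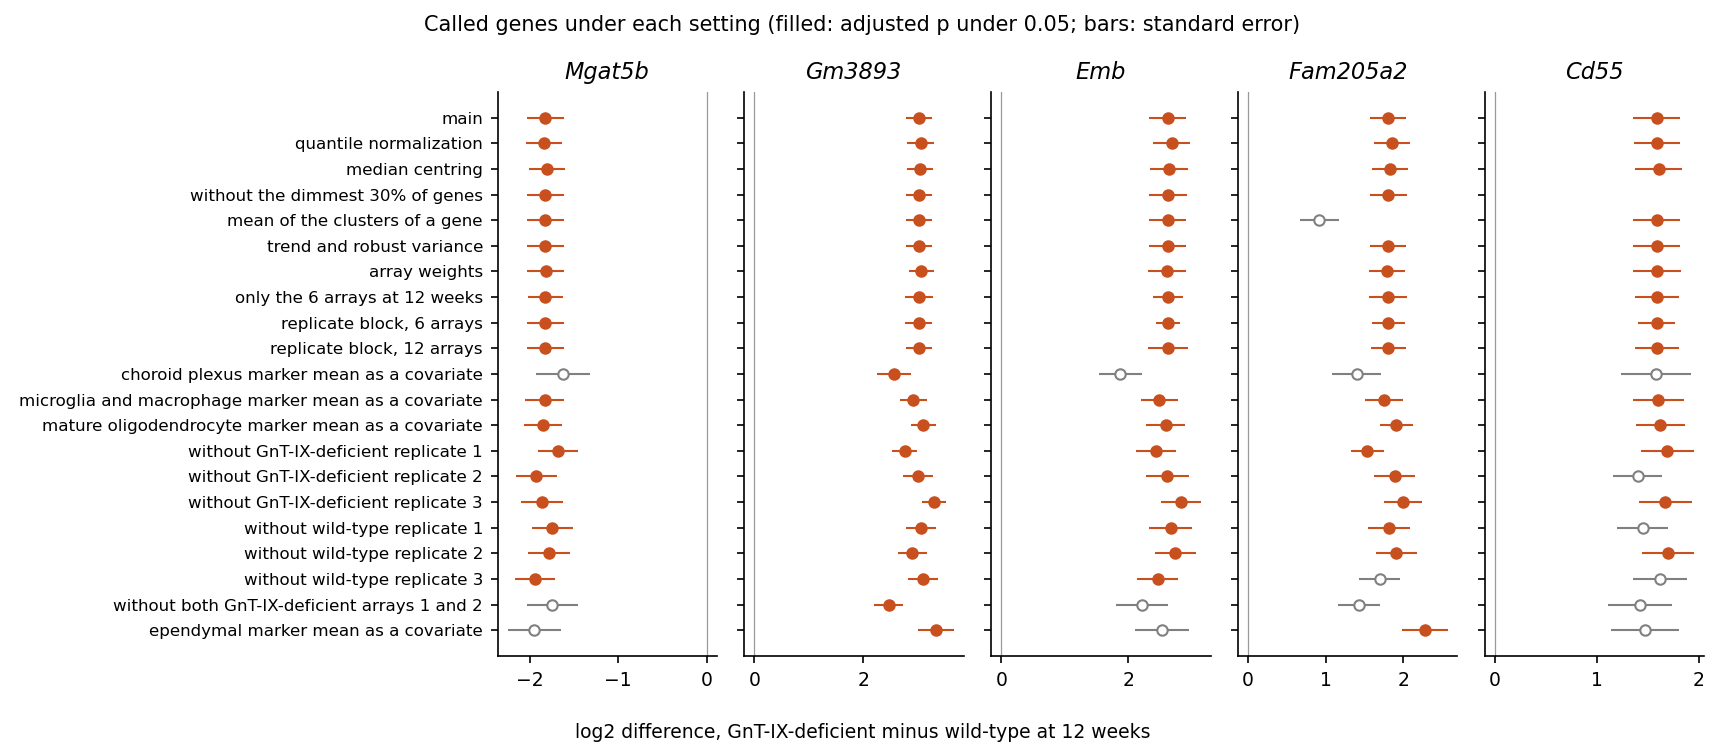
Log2 difference with its standard error (x axis) of each of the 5 called genes under the main and the 20 alternative settings (y axis), filled where the adjusted p was under 0.05; Cd55 has no value without the dimmest 30% of genes, which left it out. Gm3893 is filled throughout, and no difference changes sign.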

How the data were processed

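RNA of GLAST-selected white matter cells was measured on 12 arrays. The authors processed them in Affymetrix Expression Console 1.4 with RMA, per the submitters' processing notes, and deposited log2 values. This normalization gives arrays a like distribution and compresses differences of dim transcripts. Of 22206 clusters, 19572 had 1 gene symbol (all matched to RefSeq, GRCm38.p6), 0 had several and 2634 are unnamed here. Where a gene had more than 1 cluster (55 genes), the cluster brightest on average stood for it, which left 19505 genes.

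The test was a two-sided limma fit (version 3.58.1, R 4.3.3, lmFit then eBayes) of a mean for each of the 4 groups, which left 8 residual degrees of freedom over the 12 arrays. P-values were adjusted by Benjamini-Hochberg with a threshold of 0.05. The test was tried on simulated data. Named genes are Mgat5b, Slc1a3 and Gfap, up to 15 genes in each direction that were called or, failing that, apart with the smallest p, and for each list the called, lowest-p and brightest members; Ptprz1, Mbp, Kl, Cd55b, Fam205a1, Fam205a3 and Fam205a4 were added after their values were seen. Members and the 22 pathway and 14 marker lists were chosen with earlier results of these data known, and lists were described by counts and medians, with no test. P-values rest on the spread between biological replicates within the 4 groups, pooled over the 12 arrays and moderated across genes. Deviations from the group means correlated weakly between same-numbered arrays (r of 0.111, 0.0449 and 0.0511). Between differently numbered arrays r was -0.108 to 0.064. The labels do not say whether numbers pair mice across groups, so numbers were not used as pairs. Figures were drawn with matplotlib 3.10.9.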

Additional observations from a re-analysis of the deposited data

Results flagged for a closer look

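In a fit over all 22206 transcript clusters, 3 of the 2634 clusters without a gene name here were past the threshold, all higher in GnT-IX-deficient arrays, and they lie outside the gene comparison. TC0400000401.mm.2 was at 4.89, 4.63 and 4.04 in wild-type arrays at 12 weeks and at 7.37, 7.42 and 6.90 in GnT-IX-deficient arrays, a difference of 2.71 (limma, adjusted p = 5.76e-05). Of 1174 named clusters whose identifiers share its prefix, 1173 lie on chromosome 4, as do Gm3893 and Fam205a2. TC0Y00000223.mm.2, with a prefix that belonged to the Y chromosome in 45 of 45 named clusters, was at 5.78, 6.14 and 5.13 against 10.61, 10.74 and 9.40, a difference of 4.57 (limma, adjusted p = 2.10e-05). Its wild-type arrays were at 6.20, 5.72 and 6.29 before the diet and at 11.18, 10.75 and 10.22 after 3 weeks, so the 3-week wild-type arrays were as high as the GnT-IX-deficient ones. The third, with a prefix that belonged to the X chromosome in 795 of 795 named clusters, was at 6.68, 7.47 and 6.12 against 9.32, 9.23 and 8.14, a difference of 2.14 (limma, adjusted p = 0.0333). It too was high in wild-type arrays after 3 weeks, at 10.12, 9.71 and 9.29, and lower before the diet, at 6.58, 6.59 and 6.53. The order of the arrays in the Y-prefixed cluster is unlike Kdm5d and Uty, which were high in GnT-IX-deficient replicate 2 alone.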

How the results depend on the processing

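With 5 genes called, 20 alternatives gave 1 to 49, and none reversed a called gene. Leaving out 1 array at a time gave 3 to 49 calls, with Cd55 from 1.4 to 1.70 and Fam205a2 from 1.54 to 2.00. Without GnT-IX-deficient arrays 1 and 2 together, 6 genes were called, and the differences were 2.22 for Emb, -1.74 for Mgat5b, 1.43 for Fam205a2 and 1.42 for Cd55, none of these past the threshold. The choroid plexus covariate left 1 call, with 1.87 for Emb, -1.63 for Mgat5b, 1.4 for Fam205a2 and 1.58 for Cd55. The ependymal covariate, chosen after seeing the data, left 2 calls, with 2.53 for Emb, -1.95 for Mgat5b and 1.47 for Cd55. The microglia covariate kept all 5 calls, and the mature oligodendrocyte covariate kept them among 6. The standard error of the typical gene was 1.48, 1.43, 1.06 and 1.04 times as large with these covariates, in that order; other causes of the lost calls were not tested. The mean of the clusters of a gene gave Fam205a2 0.92. With the replicate number as a block (replicate block), 10 genes were called on 6 arrays and 5 on 12 arrays. The labels do not say whether the numbers pair the samples. Quantile normalization, median centring, another variance model and the 6 arrays alone gave 5 calls, array weights 6, and the filter on dim genes 4, since it left out Cd55. For the 75 other genes named, values passed the threshold in 18 gene and setting pairs, moved by more than the spread between replicates in 81 and by less in 1389. List medians moved by more than that spread in 69 list and setting pairs and by less in 690. With 3 arrays a group, small differences were not detectable, and signal over background was not measured.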
